A study of Mus musculus with 9 samples.

Results

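The genes described here are 10 genes of the circadian clock, measured by RNA-seq in the livers of mice with diet-induced non-alcoholic steatohepatitis (NASH), with or without treadmill training. They were chosen by name, as Arntl (also called Bmal1), Clock, Npas2, Per1, Per2, Per3, Cry1, Nr1d1, Dbp and Ciart, and were found by their Entrez Gene identifiers. All 10 were present among the 17846 genes of the deposited tables, and all 10 passed the filter on low counts that left 13619 genes for testing. Ciart had the fewest reads of them, with 5 to 20 counts in the Control mice.

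The mice were male wild type (WT) animals of the strain C57/BL, and each of the 3 groups held 3 mice with 1 liver library per mouse. Control mice ate a normal diet. NASH mice ate the atherogenic (Ath) diet, which is rich in cholesterol and contains cholate, for 20 weeks and stayed sedentary. NASH+Exercise mice ate the same diet for 12 weeks and then ran on a treadmill for 8 weeks while the diet went on. Running, or continued rest in the other groups, began at 20 weeks of age. All mice lived under a light/dark cycle of 12 hours each and were fasted overnight before the livers were taken. No strain, allele or drug separated the groups, so diet and training are the only labelled differences, and the Ath diet alone is one way among several to model the disease. The time of day at which each liver was taken, and the interval since the last run, are not given in the sources used here. The mice carry the numbers that their labels give them, which are 3, 4 and 29 for Control, 5, 19 and 20 for NASH and 8, 18 and 22 for NASH+Exercise.

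The mammalian clock is a transcriptional feedback loop that runs in nearly every cell, including hepatocytes. ARNTL pairs with CLOCK or with its relative NPAS2, and the pair binds E-box motifs to activate the Per and Cry genes, Nr1d1, Dbp and Ciart. PER and CRY proteins then accumulate and repress the pair, while NR1D1 (REV-ERBα) represses Arntl, Npas2 and Cry1 through ROR response elements (RORE). DBP carries the rhythm to genes with a D-box motif. As a result the activators and the E-box driven genes peak at roughly opposite times of day in the liver, where the clock times lipid, bile acid and glucose metabolism and is also reset by feeding.

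These 3 motifs could be read directly from the promoters of the members. RefSeq windows on GRCm38.p6, which reach from 250 bases before the annotated start to 50 bases after it, existed for 9 of the 10 members in 13 windows. Per2 has no entry. The E-box was searched as CACGTG, the D-box as TTATGTAA and the RORE by its core TAGGTCA, each on both strands, and none of the 3 overlaps another in these windows. An E-box was present in windows of 3 members (Ciart, Cry1 and Per1), against 7.15% of all 32851 windows in the table. The D-box was found in Per3 alone among the members and in 0.938% of all windows. The RORE was found in Arntl alone among the members and in 2.61% of all windows. A match describes the letters only, and binding was not measured. The 3 promoters below, of Ciart, Per3 and Cry1, are shown because they hold most of the matches. They cover the 250 bases before the start on the minus strand of chr3:95882229-95882478 (Ciart), chr4:151044666-151044915 (Per3) and chr10:85185055-85185304 (Cry1), and run 5′ to 3′ with the motifs in capitals.
Ciart: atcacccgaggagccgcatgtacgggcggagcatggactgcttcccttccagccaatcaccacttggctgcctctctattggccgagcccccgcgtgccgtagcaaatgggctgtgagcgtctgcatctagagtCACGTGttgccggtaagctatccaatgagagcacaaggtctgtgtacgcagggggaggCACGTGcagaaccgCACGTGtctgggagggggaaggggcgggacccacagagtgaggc
Per3: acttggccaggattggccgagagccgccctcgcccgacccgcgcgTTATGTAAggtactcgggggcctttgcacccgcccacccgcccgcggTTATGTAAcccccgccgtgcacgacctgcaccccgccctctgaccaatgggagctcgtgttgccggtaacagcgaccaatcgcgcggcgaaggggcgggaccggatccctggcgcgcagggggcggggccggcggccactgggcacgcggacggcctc
Cry1: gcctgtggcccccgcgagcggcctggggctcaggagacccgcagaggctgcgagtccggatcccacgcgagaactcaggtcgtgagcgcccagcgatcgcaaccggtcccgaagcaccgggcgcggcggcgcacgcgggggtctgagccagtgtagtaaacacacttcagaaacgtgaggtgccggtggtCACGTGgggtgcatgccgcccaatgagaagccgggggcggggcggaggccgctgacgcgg
In Ciart the E-boxes begin at -116, -58 and -44 relative to the start. In Per3 the D-boxes begin at -205 and -158, and in Cry1 the E-box begins at -60. For Arntl and Per1, 30 bases around the match are given, as examples of the RORE and E-box letters. The Arntl site lies at chr7:113207528-113207557 on the plus strand and its RORE core begins at 30 after an annotated start. The Per1 site lies at chr11:69098771-69098800 on the plus strand, within the annotated gene, and its E-box begins at -166 before an internal start.
Arntl: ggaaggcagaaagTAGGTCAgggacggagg
Per1: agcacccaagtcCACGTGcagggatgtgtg

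Each library held between 20085976 and 22495408 estimated reads. Levels below are CPM, counts scaled to a common library total, after TMM scaling unless they are called TPM, which also corrects for transcript length. Hepatocyte markers were abundant in every library, with a summed CPM of 116700 to 136400 in the Control group, 71630 to 101100 in the NASH group and 79420 to 106900 in the NASH+Exercise group. In whole liver, fewer cells of a type and less RNA per cell cannot be told apart. Annotated genes overlap Nr1d1 (Thra, opposite strand), Dbp (Sphk2, opposite strand), Per3 (Camta1, same strand), Arntl (Gm45355, antisense) and Ciart (C920021L13Rik, antisense). Clock (Ube2n-ps1 and Gm43658) and Npas2 (Gm20428 and Gm3617) each overlap 2 further annotated genes, 3 of these 4 being processed pseudogenes. The strand of the libraries is not given in the sources used here, so reads in these overlaps cannot be assigned with certainty.

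On the length-corrected scale, Nr1d1 and Dbp were the most abundant members over the 9 mice, with mean TPM of 45.03 and 24.2. Per1 (10.98), Arntl (10.6) and Cry1 (9.65) followed in mean TPM, then Per2 (6.95) and Clock (6.35), and Npas2 (2.78), Per3 (2.16) and Ciart (1.95) were lowest. Most neighbours in this order were not separated by the spread between mice. Dbp exceeded Per1 in 4 of 9 mice, Per1 exceeded Arntl in 4, and Per2 exceeded Clock in 3, whereas Clock exceeded Npas2 in 8 and Nr1d1 exceeded Dbp in 7. The rank of Dbp moved most. Its mean TPM was 3.30 ± 3.55 (SD, n = 3) in Control, where it ranked 7, 20.1 ± 14.01 in NASH, where it ranked 2, and 49.2 ± 45.8 in NASH+Exercise, where it ranked 1. Per2 moved from rank 8 in Control (2.22 ± 0.49 TPM) to rank 3 in NASH+Exercise (11.8 ± 6.06), and Arntl from rank 2 (14.6 ± 3.37) to rank 6 (7.44 ± 7.70).

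Arntl, the partner that the activating complexes have in common, had CPM of 32.1, 37.8 and 18.5 in Control mice 3, 4 and 29, of 17.996, 14.4 and 9.90 in NASH mice 5, 19 and 20, and of 6.98, 29.6 and 3.80 in NASH+Exercise mice 8, 18 and 22. The NASH mice all lay below the Control mice, while NASH+Exercise mouse 18 lay within the Control range and mice 8 and 22 lay below every other mouse. Npas2, which can replace CLOCK, ran in much the same way, with CPM of 9.28, 15.2 and 4.90 in the Control mice, 6.69, 5.47 and 3.995 in the NASH mice and 1.40, 14.8 and 0.682 in the NASH+Exercise mice. Its NASH+Exercise values spanned 21.7-fold from lowest to highest. Clock, the constitutive partner, had CPM of 55.2, 30.1 and 50.7 in the Control mice, 29.7, 36.1 and 31.8 in the NASH mice and 28.0, 38.8 and 17.2 in the NASH+Exercise mice. It was the steadiest member, with a range of 2.25-fold in NASH+Exercise, although mice 8 and 22 were again the lowest of the 9.

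Among the Period genes, which encode the repressors that pair with cryptochromes, Per2 and Per3 moved in the opposite direction to Arntl. Per2 had CPM of 8.16, 8.06 and 9.13 in the Control mice, 14.6, 25.7 and 16.8 in the NASH mice and 39.0, 18.6 and 67.2 in the NASH+Exercise mice. Every mouse on the Ath diet exceeded every Control mouse for this gene, and NASH+Exercise mouse 18 alone of its group fell inside the NASH range. Per3 had CPM of 1.66, 1.11 and 2.35 in the Control mice, 5.11, 10.7 and 10.6 in the NASH mice and 27.3, 2.88 and 23.3 in the NASH+Exercise mice. All Ath diet mice exceeded the Control mice here too, but mouse 18 was close to the Control range and below every NASH mouse. Per1, which besides the clock responds to hormonal and feeding cues, had CPM of 13.2, 21.5 and 57.0 in the Control mice, 23.1, 16.8 and 51.5 in the NASH mice and 13.4, 20.9 and 60.6 in the NASH+Exercise mice. For Per1 each group held 1 mouse above 50 (Control 29, NASH 20 and NASH+Exercise 22) and a pair below 25, and the groups overlapped almost completely.

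Cry1, a cryptochrome that represses the activators, had CPM of 27.9, 34.5 and 11.2 in the Control mice, 9.68, 8.89 and 7.82 in the NASH mice and 6.81, 33.0 and 8.24 in the NASH+Exercise mice. The NASH mice lay below all Control mice, and NASH+Exercise mouse 18 again stood with Control mice 3 and 4. Nr1d1, the nuclear receptor that represses Arntl, had CPM of 24.9, 34.5 and 97.4 in the Control mice, 64.3, 94.6 and 124 in the NASH mice and 102, 6.47 and 82.0 in the NASH+Exercise mice. Mouse 18 had the lowest Nr1d1 of all 9 mice, and its group spanned 15.8-fold. Ciart, which encodes a repressor of the activating complex, had CPM of 0.537, 0.278 and 1.02 in the Control mice, 0.416, 2.29 and 1.78 in the NASH mice and 3.45, 0.567 and 8.04 in the NASH+Exercise mice, and NASH mouse 5 and NASH+Exercise mouse 18 lay within the Control range.

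Dbp, the output transcription factor, varied most. Its CPM was 1.18, 1.72 and 6.99 in the Control mice, 3.16, 19.8 and 24.9 in the NASH mice and 82.5, 2.03 and 58.01 in the NASH+Exercise mice. These values stand for 22 to 137 counts in the Control mice, 76 to 585 in the NASH mice and 43 to 1891 in the NASH+Exercise mice. Mice 8 and 22 exceeded all others, mouse 18 lay between the Control mice, and the range within NASH+Exercise was 40.7-fold.

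**Figure D1:**
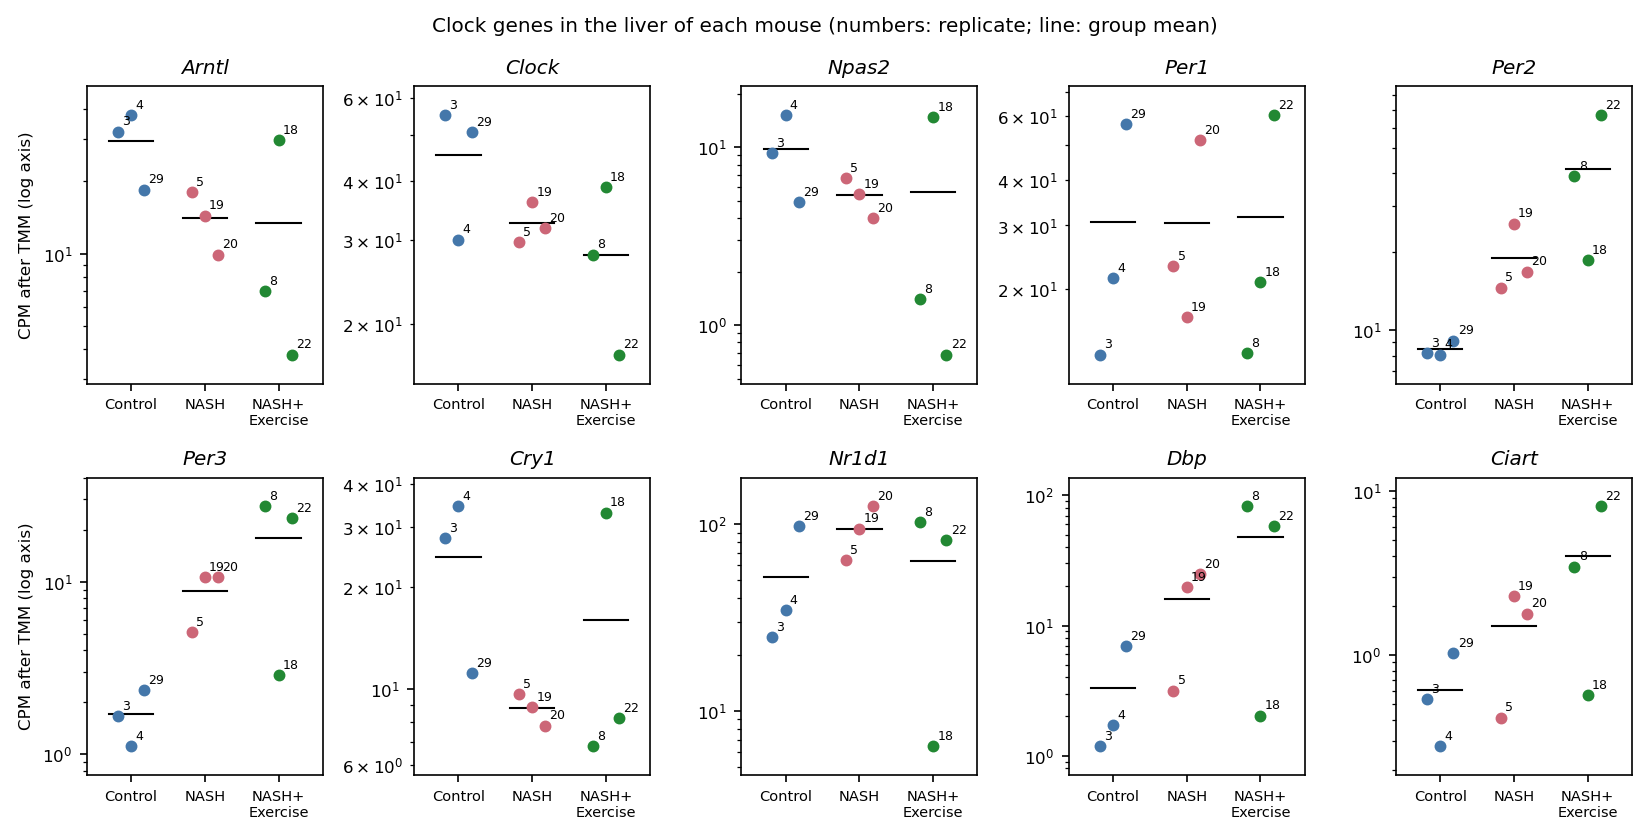
Expression of the 10 clock genes in each liver (vertical axis, CPM after TMM scaling on a log axis; horizontal axis, group; each point 1 mouse with its number, each line a group mean of 3 mice). NASH+Exercise mouse 18 sits far from mice 8 and 22 for Dbp (2.03 against 82.5 and 58.01) and for Arntl (29.6 against 6.98 and 3.80), while Per2 and Per3 are higher in all 6 mice on the Ath diet than in Control.

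The comparison of NASH with Control asks what 20 weeks of the Ath diet did. A gene was called changed at an adjusted p below 0.05, and a DEG when its log2 fold change was also beyond 1 in either direction. Of the 10 members 1 changed, against 35.6% of all genes tested (21.2% changed and higher). Per3 rose by a log2 fold change of 2.36 ± 0.74 (SE, n = 3 mice per group; edgeR adjusted p = 0.0339), which also made it a DEG (background 18.3%). Per2 was 1.17 ± 0.41 higher with an edgeR adjusted p of 0.0507, and Cry1 stood at -1.48 ± 0.60 with 0.0837. The log2 fold changes of Arntl (-1.06 ± 0.63), Dbp (2.26 ± 1.19), Ciart (1.27 ± 0.96), Nr1d1 (0.85 ± 0.81), Npas2 (-0.86 ± 0.89), Clock (-0.48 ± 0.29) and Per1 (-0.01 ± 0.68) had edgeR adjusted p from 0.174 to 0.994. The groups did not overlap for 4 of 10 members (Arntl and Cry1 lower, Per2 and Per3 higher), against 49.6% of all genes. An unadjusted p below 0.05 was reached by 3 members, against a background of 45.3%. The median log2 fold change of the members was 0.42, with 5 higher and 5 lower, beside 0.01 for all genes.

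The call in this comparison depended on which mice and genes entered the fit. When the fit used only these 6 mice, and likewise with DESeq2, 4 members were called (Arntl, Per2, Per3 and Cry1), against 33.2% and 29% of all genes in those fits. In the 6-mouse edgeR fit the adjusted p was 0.0291 for Arntl, 0.00339 for Per2 and 0.0174 for Cry1, while over all alternatives it ran from 0.00158 to 0.448 for Arntl, from 5.15e-05 to 0.189 for Per2 and from 8.86e-05 to 0.267 for Cry1. Without any filter on low counts no member was called, and Per3 then had an edgeR adjusted p of 0.0857. Per3 also lost its call without Control mouse 3 (0.0926), 4 (0.146) or 29 (0.0717) and without NASH mouse 19 (0.0995) or 20 (0.0788), again as edgeR adjusted p, with log2 fold changes between 2.11 and 2.62.

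The comparison of NASH+Exercise with NASH asks what training changed under the same diet. None of the 10 members passed the test, against 0.162% of all genes (22 genes, of which 19, or 0.14%, were DEGs), with edgeR. DESeq2 and limma on log2 TPM also called 0 members, while they called 3.87% and 1.22% of all genes. Per2 had the lowest unadjusted p and was the 1 member below 0.05 (background 15.3%), with a log2 fold change of 1.13 ± 0.39 and an edgeR adjusted p of 0.239. The other log2 fold changes were 1.58 ± 1.08 for Dbp, 1.41 ± 0.82 for Ciart, 1.02 ± 0.64 for Per3, 0.86 ± 0.60 for Cry1, -0.57 ± 0.80 for Nr1d1, -0.22 ± 0.29 for Clock, -0.07 ± 0.63 for Arntl, 0.06 ± 0.90 for Npas2 and 0.05 ± 0.68 for Per1. The groups overlapped for all 10, whereas 24.1% of all genes did not overlap. The intervals were wide, so the data do not show that the members were alike in the 2 groups: the interval of 2 SE ran from -0.58 to 3.73 for Dbp, from -1.33 to 1.195 for Arntl and from -1.73 to 1.85 for Npas2. The median log2 fold change of the members was 0.46, with 7 higher and 3 lower, beside -0.03 for all genes.

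NASH+Exercise against Control compares diet plus training with neither. It shares the Control mice with the first comparison and the NASH+Exercise mice with the second, so the 3 sets of values are not independent. Here 3 of 10 members changed, against 25.1% of all genes (15.6% changed and higher), and all 3 rose and were DEGs (background 13.5%). Per2 rose by a log2 fold change of 2.30 ± 0.42 (edgeR adjusted p = 0.00344), Per3 by 3.37 ± 0.75 (0.00956) and Dbp by 3.83 ± 1.23 (0.0479). Ciart was 2.69 ± 0.93 higher with an edgeR adjusted p of 0.0628, and Clock stood at -0.70 ± 0.29 with 0.113. Arntl (-1.13 ± 0.63), Npas2 (-0.80 ± 0.89), Cry1 (-0.61 ± 0.58), Nr1d1 (0.28 ± 0.80) and Per1 (0.04 ± 0.68) had edgeR adjusted p from 0.234 to 0.973. The groups did not overlap for 2 of 10 members (Per2 and Per3), against 38.6% of all genes, and 5 members had an unadjusted p below 0.05, against 36.3%. In NASH against Control the log2 fold changes of the same 3 genes were 1.17 for Per2, 2.36 for Per3 and 2.26 for Dbp.

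The call for Dbp was fragile, with edgeR adjusted p of 0.145, 0.171 and 0.0683 without Control mouse 3, 4 or 29 and of 0.132 and 0.0974 without NASH+Exercise mouse 8 or 22. Dbp was also not called with RLE scaling (0.0531), without the filter (0.135), in the fit of these 6 mice (0.0563) or with limma on TPM (0.135). It kept its call with library size alone and with DESeq2. DESeq2 called 4 members (Per2, Per3, Dbp and Ciart), beside 3014 of 15028 genes tested. Without Control mouse 4 the call for Per3 was lost (edgeR adjusted p = 0.0615) and Clock was called (-0.90, 0.0429), while Per2 was called under every alternative, with adjusted p from 3.48e-08 to 0.0236.

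**Figure D2:**
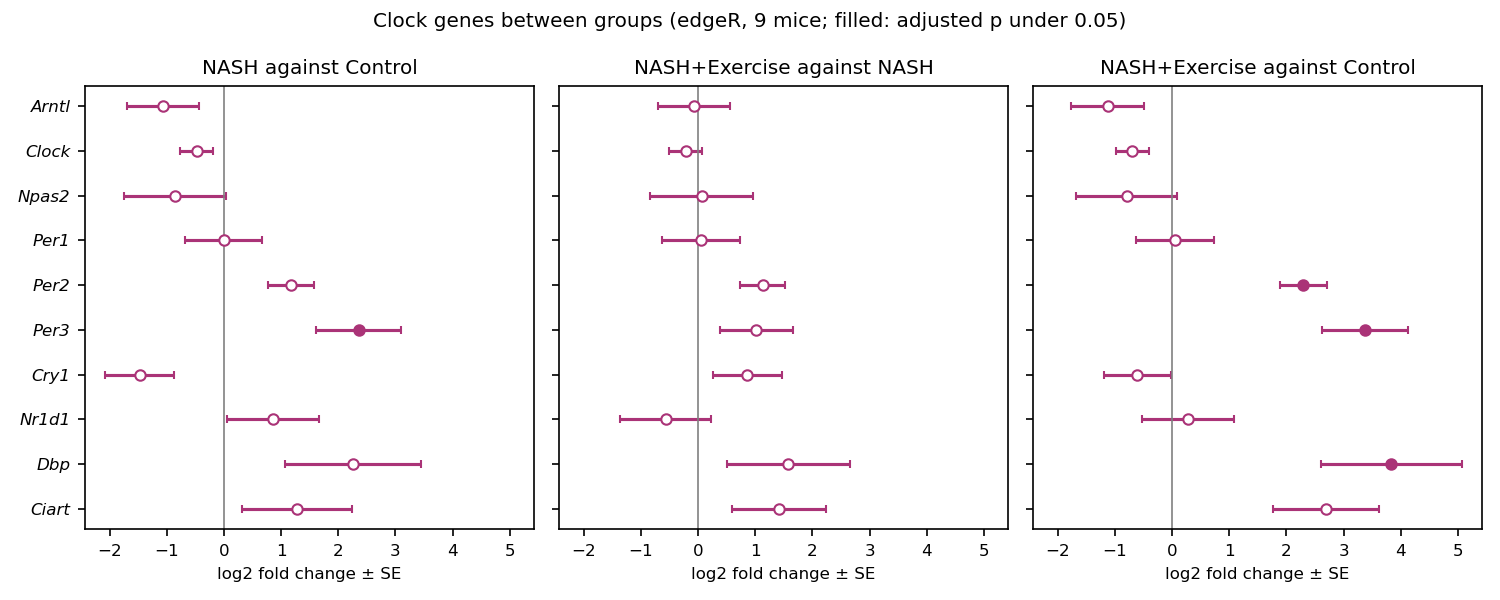
Log2 fold changes of the 10 clock genes with 1 SE on each side (horizontal axis) in the 3 comparisons, from the edgeR fit of all 9 mice; filled points had an adjusted p below 0.05. Per3 is filled against Control in both panels, at 2.36 and 3.37, Per2 and Dbp only for NASH+Exercise against Control, and no gene is filled for NASH+Exercise against NASH.

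When each mouse was left out in turn, NASH+Exercise mouse 18 moved the count of called members most, in NASH+Exercise against Control. It is singled out here because its values of these same genes stood apart, so the p-values without it follow a selection on the tested values, and they describe how far the comparison hangs on 1 library rather than a change in the group. Against Control, 8 of 10 members had an edgeR adjusted p below 0.05 without mouse 18, against 19.8% of all genes, with 2 mice left in the group. The log2 fold changes were -2.44 for Arntl (edgeR adjusted p = 0.0034), -3.22 for Npas2 (0.00356), -1.004 for Clock (0.0347) and -1.70 for Cry1 (0.0192). They were 2.65 for Per2 (0.000294), 3.88 for Per3 (0.000166), 4.398 for Dbp (0.00802) and 3.20 for Ciart (0.0122), again with edgeR adjusted p. Per1 and Nr1d1 were not called, with log2 fold changes of 0.27 and 0.82. With all mice Arntl (edgeR adjusted p = 0.234), Npas2 (0.570), Clock (0.113), Cry1 (0.5001) and Ciart (0.0628) did not pass. Leaving out mouse 8 or mouse 22 in its place gave 2 called members each time, Per2 and Per3, against 18.1% and 21.4% of all genes.

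Against NASH, leaving out mouse 18 still gave 0 called members and 0 called genes in all. The log2 fold changes were then -2.35 for Npas2 (edgeR adjusted p = 0.251; 0.251 to 0.992 over all alternatives), -1.38 for Arntl, 1.48 for Per2, 1.53 for Per3, 1.93 for Ciart and 2.14 for Dbp. The sign for Arntl, Clock, Npas2, Per1 and Cry1 thus depended on which trained mouse was left out, and without mouse 22 Arntl was 0.37 and Npas2 0.59 higher.

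**Figure D3:**
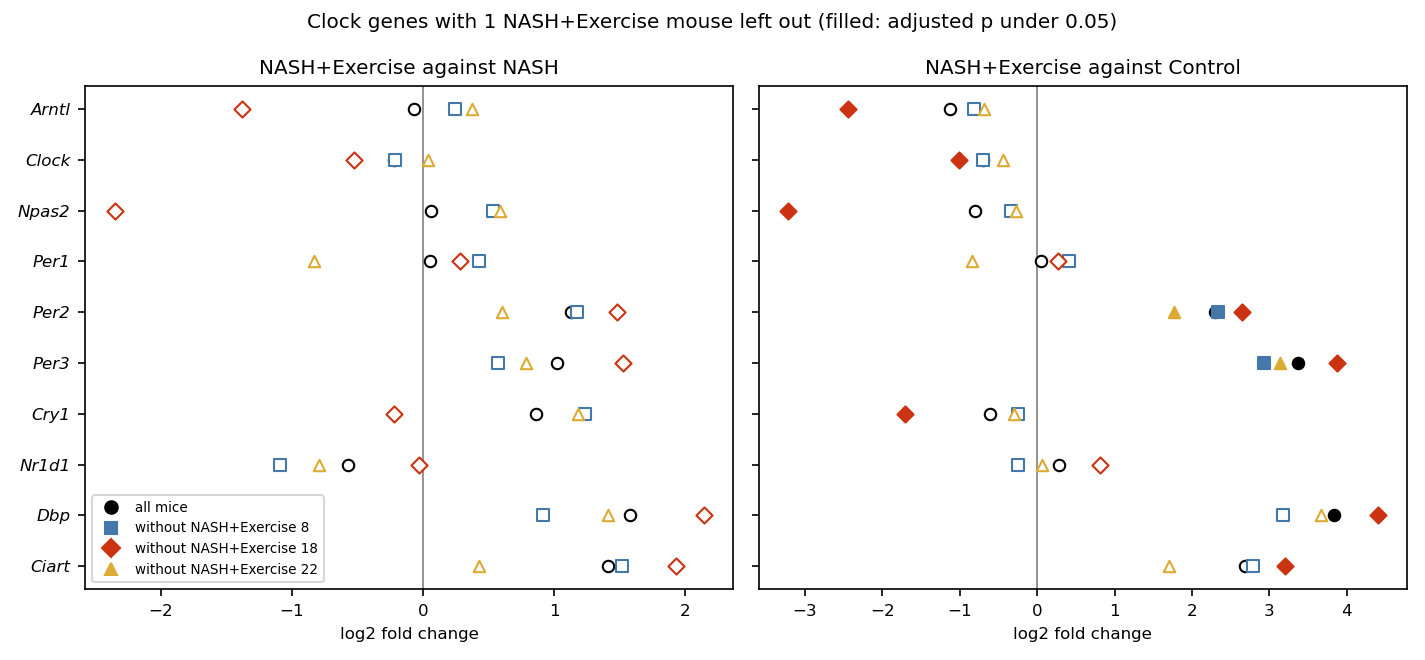
Log2 fold changes of the 10 clock genes (horizontal axis) for NASH+Exercise against NASH and against Control, with all mice (circles) or without NASH+Exercise mouse 8 (squares), 18 (diamonds) or 22 (triangles); filled symbols had an edgeR adjusted p below 0.05. Without mouse 18, 8 genes are filled against Control and 0 against NASH.

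The spread within groups was large for nearly every member. The SD of log2 CPM, pooled over the groups, had a median of 1.07 over the members, from 0.443 for Clock to 2.07 for Dbp, beside a median of 0.234 over all genes tested. For 9 of 10 members it exceeded the 90th percentile of all genes (0.554), and Clock, the exception, lay at percentile 82.0. The SD differed by group, with member medians of 0.802 for Control, 0.455 for NASH and 1.65 for NASH+Exercise beside 0.251, 0.169 and 0.1996 for all genes. All 10 members had their largest SD in NASH+Exercise, as did 27.7% of all genes. NASH mice were the most alike for Clock (SD 0.142) and Cry1 (0.154), and Control mice for Per2 (0.0983). Collection time, the length of the fast and the time since the last run are not given for each mouse, and their part in this spread was not tested.

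**Figure D4:**
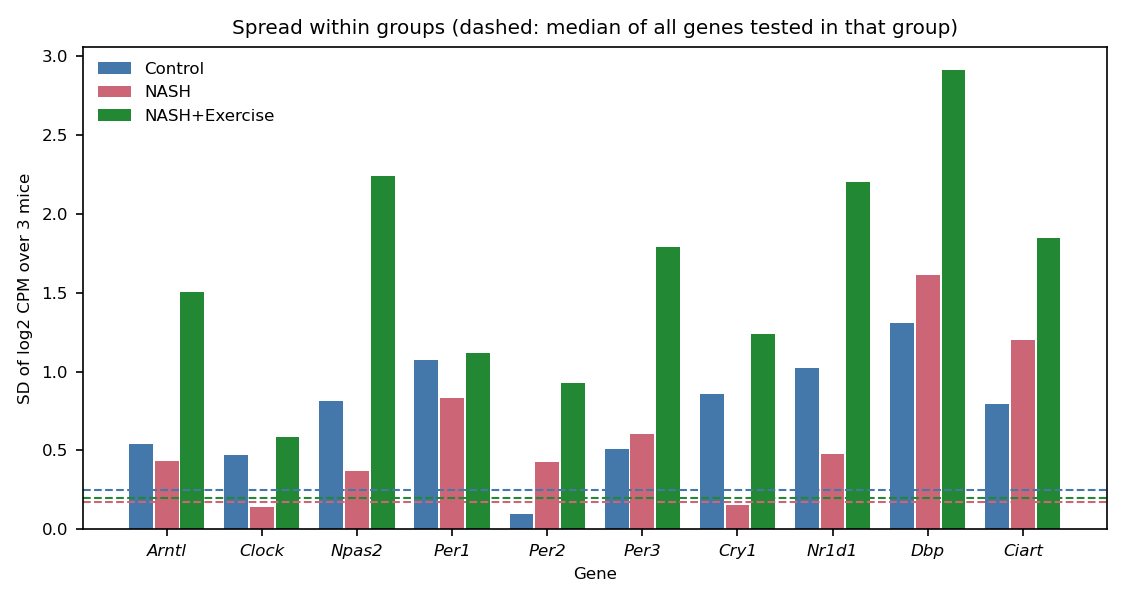
SD of log2 CPM over the 3 mice of a group (vertical axis) for each clock gene, with dashed lines at the median of all genes tested in that group. Every gene has its highest bar in NASH+Exercise, up to 2.91 for Dbp, while the dashed lines lie between 0.169 and 0.251.

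The order of the mice was shared between some of the genes. Control 3, Control 4 and NASH+Exercise 18 were the 3 highest mice for Arntl, Npas2 and Cry1 and the 3 lowest for Nr1d1 and Dbp. Either arrangement was found in 3.91% of all genes tested (533 genes). NASH+Exercise 8 and 22 were the 2 lowest mice for Arntl, Clock and Npas2 and the 2 highest for Per2, Per3, Dbp and Ciart. The share of all genes with these 2 mice at either end was not counted. The log2 ratio of Arntl to Dbp, taken within each library, was 4.77, 4.45 and 1.40 for Control 3, 4 and 29, 2.51, -0.46 and -1.33 for NASH 5, 19 and 20, and -3.56, 3.86 and -3.93 for NASH+Exercise 8, 18 and 22. Control and NASH mice overlapped in this ratio, and NASH+Exercise held values near both ends. A pair of other ratios did not overlap between Control and NASH. For Cry1 to Per2 this had to follow, since Cry1 was lower and Per2 higher in every NASH mouse than in every Control mouse. How many gene pairs among all genes would separate in this way was not counted. The log2 ratio of Cry1 to Per2 was 1.77, 2.096 and 0.29 for the Control mice, -0.59, -1.53 and -1.10 for the NASH mice and -2.52, 0.83 and -3.03 for the NASH+Exercise mice. Npas2 to Per3 gave 2.48, 3.78 and 1.06, then 0.39, -0.96 and -1.41, then -4.29, 2.36 and -5.09 on the same scale, so in both ratios every NASH mouse lay below every Control mouse while mouse 18 lay within the Control range. Arntl to Nr1d1 gave 0.37, 0.13 and -2.40 for Control and -1.84, -2.72 and -3.65 for NASH, which overlapped. Its NASH+Exercise values were -3.875, 2.19 and -4.43, and there mouse 18 lay above every Control mouse. Clock, Per1, Per2, Per3 and Ciart did not have Control 3, Control 4 and mouse 18 together at either end. For Clock the highest mice were Control 3, Control 29 and mouse 18. For Per2 and Per3 the lowest mice were those of the Control group, and for Ciart they were Control 4, NASH 5 and Control 3. Per1 had NASH+Exercise 22, Control 29 and NASH 20 as its highest mice. The trio was chosen after its values were seen.

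The remaining genes of the loop were counted from a list of 14. In NASH against Control 2 of the 14 changed, against 35.6% of all genes, namely Hlf, a relative of Dbp, which fell (-0.78, edgeR adjusted p = 0.0116), and Csnk1e, a kinase that marks PER proteins for degradation, which rose (0.66, 0.00466). Between NASH+Exercise and NASH 0 of the 14 changed, with 3 at an unadjusted p below 0.05 (all genes 15.3%). Against Control, 4 changed in NASH+Exercise, beside 25.1% of all genes. The E-box repressors Bhlhe41 (1.87, edgeR adjusted p = 0.0383) and Bhlhe40 (1.52, 0.00744) rose, and Rora, which activates through the RORE (-0.77, 0.0233), and Hlf (-0.64, 0.0369) fell. The paralog of Nr1d1, Nr1d2, had CPM of 24.3, 13.96 and 46.1 in the Control mice, 34.7, 42.96 and 51.6 in the NASH mice and 54.7, 9.02 and 49.1 in the NASH+Exercise mice, so Control 3 and 4 and mouse 18 were lowest here as well. The same 3 mice were also lowest for Tef and Csnk1e and highest for Nfil3, a repressor that binds the D-box. The pooled SD had a median of 0.305 over these 14 genes, with 5 above the 90th percentile of all genes.

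**Figure D5:**
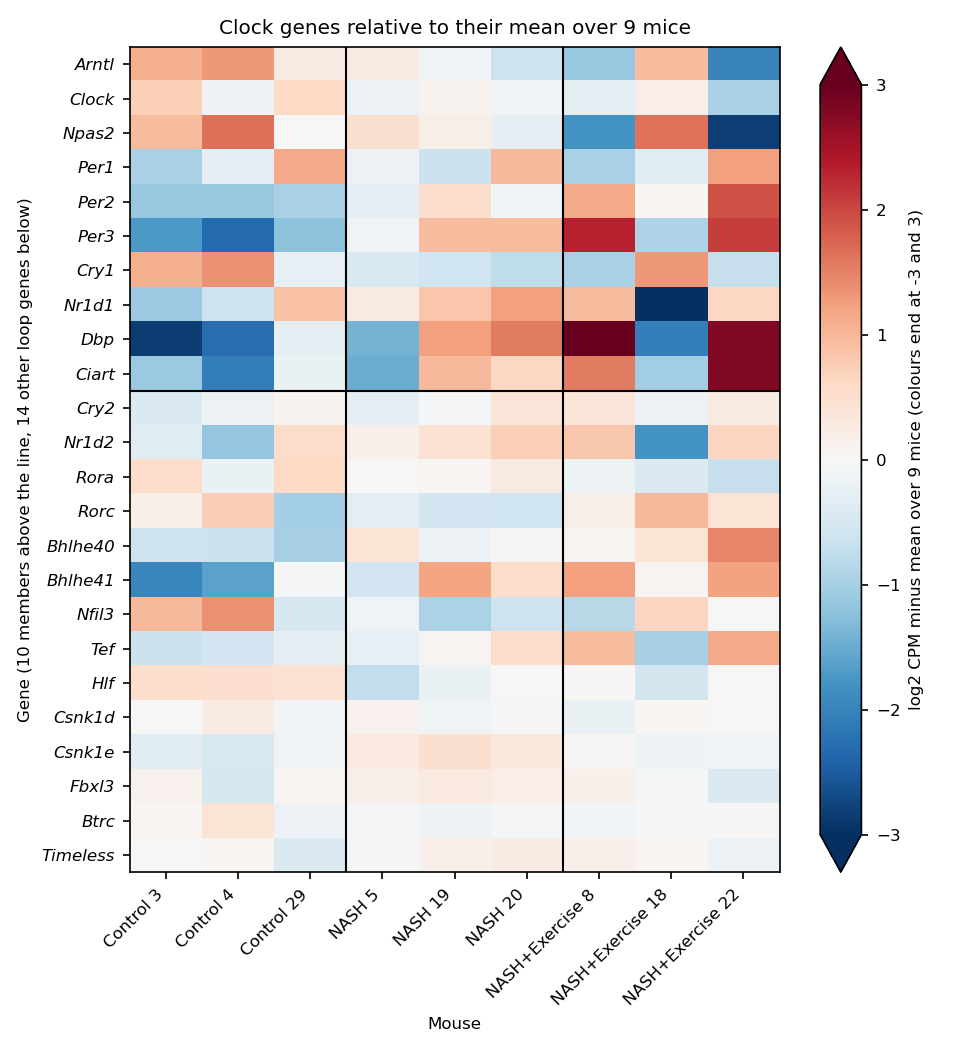
Log2 CPM minus the mean over the 9 mice (colour, ending at -3 and 3) for the 10 clock genes and 14 other loop genes (rows) in each mouse (columns, lines between groups). NASH+Exercise 18 has the colours of Control 3 and 4 for Arntl, Npas2, Cry1, Nr1d1 and Dbp, and NASH+Exercise 8 and 22 have the opposite ones.

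Genes downstream of the clock were taken from a second list of 14. In NASH against Control 3 of 14 changed, against 35.6% of all genes. Elovl3, a fatty acid elongase, fell (-2.82, edgeR adjusted p = 0.0236), Gys2, the liver glycogen synthase, fell (-1.03, 0.0103), and Nampt, the rate-limiting enzyme of NAD salvage, rose (0.78, 0.0205). Between NASH+Exercise and NASH 0 of 14 changed, with 1 at an unadjusted p below 0.05. Against Control, 3 changed in NASH+Exercise (all genes 25.1%), as Upp2, a uridine phosphorylase (2.11, edgeR adjusted p = 0.0380), and Wee1, a cell cycle kinase (1.58, 0.0198), rose and Insig2, which restrains sterol synthesis (-1.10, 0.0166), fell. Elovl3 had CPM of 802, 1036 and 565 in the Control mice, 104, 92.6 and 143 in the NASH mice and 43.6, 462 and 55.1 in the NASH+Exercise mice, where mouse 18 again stood near Control. The pooled SD of the output genes had a median of 0.728, and 10 of 14 exceeded the 90th percentile.

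Other genes that feeding, stress or cell composition can move were read beside the clock genes. The shares of all genes that changed, 35.6% in NASH and 25.1% in NASH+Exercise against Control, are the background for these counts too. Of 12 glucocorticoid and fasting genes, 3 changed and were lower in NASH against Control, which were the gluconeogenic G6pc (-2.003, edgeR adjusted p = 0.00791), the lipase inhibitor Angptl4 (-1.56, 0.0304) and Cpt1a, which imports fatty acids into mitochondria (-1.004, 0.000771). For NASH+Exercise against Control 5 of the 12 changed and were lower, while 9 were lower and 3 higher in direction. Of 9 immediate early genes, 7 changed and were higher in NASH and 5 in NASH+Exercise against Control, among them Atf3 by 2.49 and 1.87 with edgeR adjusted p of 0.000425 and 0.00343. Of 10 temperature and heat shock genes, which include Cirbp and Rbm3, 1 changed in NASH, Hspa8 (-0.56, edgeR adjusted p = 0.0264). In NASH+Exercise against Control 0 of them changed, with 6 at an unadjusted p below 0.05 (all genes 36.3%). Mouse 22 had the highest Hspa1b, at 207 CPM. These 3 lists had 0 changed genes in NASH+Exercise against NASH with edgeR. There 0 glucocorticoid and fasting genes, 1 immediate early gene and 4 temperature and heat shock genes had an unadjusted p below 0.05 (all genes 15.3%).

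Macrophage markers changed and were higher for 8 of 9 genes in NASH against Control (all genes 21.2%), while all 9 were higher in direction. Their summed CPM was 71.4 to 131 for Control, 746 to 904 for NASH and 536 to 659 for NASH+Exercise. Neutrophil markers summed to 11.3 to 15.9, 43.7 to 48.8 and 32.0 to 39.8 CPM in the same order, with 4 of 6 changed and higher in NASH. Stellate cell markers summed to 58.8 to 88.9, 234 to 293 and 103.5 to 173, with 4 of 7 changed and higher. T and B cell markers (4 of 7 tested changed and higher in NASH), endothelial markers (3 of 6) and cholangiocyte markers (3 of 5) also moved. Hepatocyte markers changed and were lower for 4 of 9 in NASH against Control, while all 9 were lower in direction with TMM scaling. On the TPM scale the NASH mean was above the Control mean for Apoa1 (24760 against 20850) and Cps1 (821 against 754), and below it for the rest. The 4 called genes, Ttr, Serpina1a, Asgr1 and Cebpa, each lost the call under some alternative. Their smallest log2 fold changes there were -0.26, -0.22, -0.012 and -0.023. In all lists, 0 markers were at 0 counts in any mouse. Mouse 18 had the lowest sums of its group for hepatocyte (79420), macrophage (536), stellate cell (103.5) and endothelial markers (114.8). Its neutrophil sum (39.8) was the highest of the group. Its sums for T and B cell (10.01) and cholangiocyte markers (83.84) lay in the middle of the group. The part of cell composition, feeding and stress in the clock gene values was not tested.

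Outside the 10 members, the genes most like Arntl over the 9 mice, by Pearson's r of log2 CPM among 9581 genes with a mean CPM of at least 5, were Asap2 (0.965), Rnf125 (0.957), Lgalsl (0.956), Sppl2b (0.952) and Smagp (0.951). Among the most opposite were Tef (-0.963), Spry4 (-0.903), Klf13 (-0.897) and Gpr146 (-0.874). Tef, a relative of Dbp, was also most like Dbp (0.950), followed by Cry2 (0.895), Fam219b (0.882) and Gpr146 (0.880), and Jmy (-0.966), Mcu (-0.948), Desi2 (-0.941), Tmem94 (-0.939) and Camk1d (-0.934) were most opposite to Dbp. These values describe 9 libraries in which the groups and the mouse order above both take part, and they say nothing of shared control. Rnf125, a ubiquitin ligase, had CPM of 429, 520 and 354 in the Control mice, 308, 156 and 166 in the NASH mice and 155, 386 and 82.2 in the NASH+Exercise mice, so mouse 18 lay within the Control range as for Arntl. Since Rnf125 was picked for its likeness to Arntl over these same mice, this is no separate result.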

How the data were processed

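Liver RNA of 9 mice was sequenced as 1 library per mouse. The authors deposited, per gene and mouse, estimated counts (not normalized; 29.0 to 32.8% of them not whole), TPM and FPKM, and the submitters' processing notes name HISAT2 2.1.0, Bowtie2 2.2.5, RSEM 1.2.8 and GRCm38.p6. Symbols were found for 17728 of 17846 Entrez identifiers in a RefSeq table of GRCm38.p6, and overlapping genes in GENCODE M21. One file repeats all 9 mice, and 0 of 428304 repeated values differed.

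Counts were rounded and tested with edgeR 4.0.16 in R 4.3.3 (filterByExpr with at least 10 counts and a total of 15, TMM, quasi-likelihood with the robust option, 1 fit of the 9 mice by group, 6 residual degrees of freedom, two-sided, Benjamini-Hochberg over 13619 genes). The p-values measure the spread between these mice only. Log2 CPM used a prior count of 2. DESeq2 1.42.0, RLE scaling, library size alone, no filter, the 6 mice of a comparison and limma 3.58.1 on log2(TPM + 0.5) were tried, and each mouse was left out in turn. The code was tested on simulated data.

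The members and gene lists were chosen with earlier results of these data known, so counts over lists are descriptions. All members are named in every comparison, and from each other list up to 4 changed genes with the largest fold change. Nr1d2, Tef, Nfil3, Hspa1b and repeated values of Elovl3 and Rnf125 were added after their values were seen. For likeness the genes with the 5 highest and 5 lowest correlations were chosen, of which 1 gene is not reported here.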

Additional observations from a re-analysis of the deposited data

How the results depend on the processing

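There were 3 mice per group, and Ciart had as few as 5 counts. Of 360 values of the members under alternatives, 304 kept direction and side of the threshold, 16 lost the call, 15 gained it and 25 turned direction. For the named genes of the other lists, 701 of 840 values kept the call, 139 lost it and 0 turned direction. These genes were named because they were called, so none could gain a call. Among those that lost it under some alternative were Hspa8, Hlf, Angptl4 and Gys2 in NASH, and Rora, Upp2 and Bhlhe41 in NASH+Exercise, each against Control. Members changed in NASH against Control numbered 1, and 4 with DESeq2, 4 in the fit of 6 mice, 2 with library size alone, 2 with limma on TPM, 0 without the filter and 0 to 1 with a mouse left out, and the counts of DEGs were the same. In NASH+Exercise against Control the 3 changed members became 2 to 8, and the 3 DEGs 1 to 8 (1 without Control mouse 4, 8 without NASH+Exercise mouse 18), with a mouse left out. Both counts were 4 with DESeq2, 3 with library size alone and 2 with each of the other settings. Between NASH+Exercise and NASH the 22 changed genes became 521 with DESeq2, 166 with limma and 0 to 34 with a mouse left out, and the 19 DEGs became 204, 94 and 0 to 34, with 0 without NASH 20 or NASH+Exercise 18, 1 without NASH 5, 2 without NASH+Exercise 22, 5 without NASH 19 and 34 without NASH+Exercise 8.

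Library size alone moved the median over all genes (log2) to 0.36, -0.23 and 0.15 in the 3 comparisons, and limma on TPM to 0.39, -0.29 and 0.12. The share of changed genes that were higher was 59.6% in NASH against Control, 87.6% with library size and 90.6% with limma. It was 61.9%, 75.5% and 72.7% in NASH+Exercise against Control, and 68.2% and 16.9% (limma) in NASH+Exercise against NASH. Under library size and limma, Per1 turned to 0.27 and 0.50 in NASH against Control and to -0.18 and -0.36 in NASH+Exercise against NASH, Npas2 to -0.15 and -0.83 in NASH+Exercise against NASH, and Nr1d1 to -0.041 (limma) in NASH+Exercise against Control.

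With a mouse left out, log2 fold changes that turned ranged from -0.62 to 0.76 for Per1 in NASH against Control. In NASH+Exercise against NASH they ranged from -1.38 to 0.37 for Arntl, -0.52 to 0.038 for Clock, -2.35 to 0.59 for Npas2, -0.83 to 0.66 for Per1 and -0.22 to 1.23 for Cry1. In NASH+Exercise against Control they ranged from -0.84 to 0.84 for Per1 and -0.24 to 1.07 for Nr1d1. The causes were not tested. The median pooled SD of 1.07 was 1.08 with library size alone and 0.924 on log2(TPM + 0.5). No paired analysis was possible because the groups share no mouse number.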
